A study of Mus musculus with 22 samples.

Results

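The genes examined here are 7 B-lineage genes, most of them of the B cell receptor and its signalling. Among them are the heavy chain Ighm, the light chain Igkc and the signalling chains Cd79a and Cd79b. The others are the coreceptor Cd22, the surface protein Ms4a1 and the adaptor Blnk. These 7 genes are among the 37620 genes of a read count table made from tumour-infiltrating lymphocytes. They were chosen because the levels of Cd22, Cd79b and Ighm were high, and that of Igkc was not, in CD8 T cells that carry the NK cell receptor NK1.1. The contrasts of that population with the others of its set are therefore given as a description with no test, and tests are given for the second set of populations, which the choice did not use, and for 1 pair of first-set populations that were only comparators in it.

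In a B cell, the membrane antigen receptor is an immunoglobulin of heavy chains, encoded by Ighm in its IgM form, and light chains, most often kappa chains encoded by Igkc. It cannot signal by itself and is paired with Cd79a and Cd79b, which carry the tyrosine motifs that the kinases Lyn and Syk act on. Blnk then links Syk to the phospholipase Plcg2 and the kinase Btk, while Cd22, a lectin that binds sialic acid, brings in the phosphatase Ptpn6 to dampen the signal. Ms4a1 encodes CD20, a surface protein used to identify B cells. T cells and NK cells use other antigen or activating receptors, with the CD3 chains or the adaptors Fcer1g and Tyrobp in the place of Cd79a and Cd79b.

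All cells came from pooled mammary tumours of female C57BL/6 mice that carry the PyMT oncogene, aged 20 to 24 weeks, and were sorted by flow cytometry into 11 populations with 2 libraries each. There was no tumour-free group. The labels do not say whether the libraries of a population came from separate animals, so the p-values measure the spread between these libraries only. The first set held 5 populations: TCRb+CD8a+NK1.1+, TCRb+CD8a+PD1+ and TCRb+CD8a+PD1-NK1.1- CD8 T cells, TCRb+CD8a-NK1.1+ T cells and TCR-NK1.1+ cells. The second set held 6 populations. Of these, TCRab+ILTC1, TCRgd+ILTC1 (innate-like T cells) and ILC1l (cells like type 1 innate lymphoid cells) are called innate-like here, and TCRb+CD8a+NK1.1- T cells, TCRgd+NK1.1- T cells and conventional NK cells (cNK) are called conventional.

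The total count was 8696335 to 20602715 per library. Levels are given as CPM, the count per 1000000 counts after scaling over all 22 libraries, and 3 counts, the limit that a count of 0 allows, equalled 0.146 to 0.315 CPM depending on the library. This limit covers counting error only. The sorting markers followed the labels in most respects: Klrb1c, which encodes NK1.1, was at 921 CPM or more in every NK1.1+, ILTC1, ILC1l and cNK library and at 81.5 CPM or less in the NK1.1- and PD1+ ones, and Cd3e was at 0.615 and 6.09 CPM in cNK. Cd3e was however at 86.1 and 459.8 CPM in ILC1l and at 217 and 437 CPM in TCR-NK1.1+, whose labels name no T cell receptor. Myeloid genes (10 genes, among them Lyz2 and Csf1r) summed to 6093 and 13638 CPM in TCRgd+NK1.1- against 22.8 to 1369 CPM elsewhere. In bulk libraries such as these, fewer cells of a type and less RNA per cell cannot be told apart. The orders of means and the correlations given below span both sets, and no test compares populations across the sets. Between the sets, a difference of population cannot be told apart from a difference of set.

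The promoters of Cd22, Cd79a and Blnk, the 3 members matched in the RefSeq table used here, are printed to show the sequence before their start sites. Each is the 250 bases before the RefSeq start site on GRCm38.p6, in the direction of the gene. Cd22 lies at chr7:30879029-30879278 on the minus strand, Cd79a at chr7:24897247-24897496 on the plus strand and Blnk at chr19:40994222-40994471 on the minus strand. Capitals mark matches, on either strand, to 3 motifs that B cell factors can bind: the octamer ATGCAAAT, the ETS motif AGGAAGT and the E-box CAGGTG.
Cd22 promoter: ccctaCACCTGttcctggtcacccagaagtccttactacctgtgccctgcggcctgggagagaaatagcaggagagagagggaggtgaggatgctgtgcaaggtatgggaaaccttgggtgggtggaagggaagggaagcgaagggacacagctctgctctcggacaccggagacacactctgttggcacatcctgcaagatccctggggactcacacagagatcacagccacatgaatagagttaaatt
Cd79a promoter: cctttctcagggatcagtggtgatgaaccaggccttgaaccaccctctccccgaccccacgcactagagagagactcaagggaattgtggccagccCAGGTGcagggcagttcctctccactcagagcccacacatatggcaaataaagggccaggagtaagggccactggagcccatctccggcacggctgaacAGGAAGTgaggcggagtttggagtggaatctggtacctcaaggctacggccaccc
Blnk promoter: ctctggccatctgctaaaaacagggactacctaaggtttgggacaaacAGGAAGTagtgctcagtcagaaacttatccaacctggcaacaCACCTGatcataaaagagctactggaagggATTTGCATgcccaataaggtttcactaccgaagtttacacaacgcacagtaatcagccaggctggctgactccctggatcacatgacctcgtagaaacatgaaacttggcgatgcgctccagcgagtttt
The Cd22 window held 1 E-box, Cd79a held 1 E-box and 1 ETS motif, and Blnk held 1 E-box, 1 ETS motif and 1 octamer, none of which overlapped. Among the 32851 promoters searched over the same length, 17.2% held the E-box, 7.69% the ETS motif and 1.6% the octamer. The RUNX motif TGTGGT was searched as well, and was in 14.0% of promoters and in none of these 3 windows. The matches describe the letters and are not evidence of binding.

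The CD8 T cells with NK1.1 combined the highest mean levels of Ighm, Cd79b and Cd22 with next to no RNA of the other members. Ighm was at 996 and 859 CPM in the TCRb+CD8a+NK1.1+ libraries, Cd79b at 45.3 and 33.8 CPM and Cd22 at 19.9 and 27.4 CPM. Those Cd22 levels rest on 229 and 315 counts. Igkc had 0 and 2 counts in the same libraries, beside 11442 and 9870 counts of Ighm. Cd79a was at 0.174 and 0.087 CPM and Blnk at 0 and 0.174 CPM, under the level of 3 counts in each library, and Ms4a1 had no count in either. The plot of the members by population shows these levels beside the other 10 populations.

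**Figure D1:**
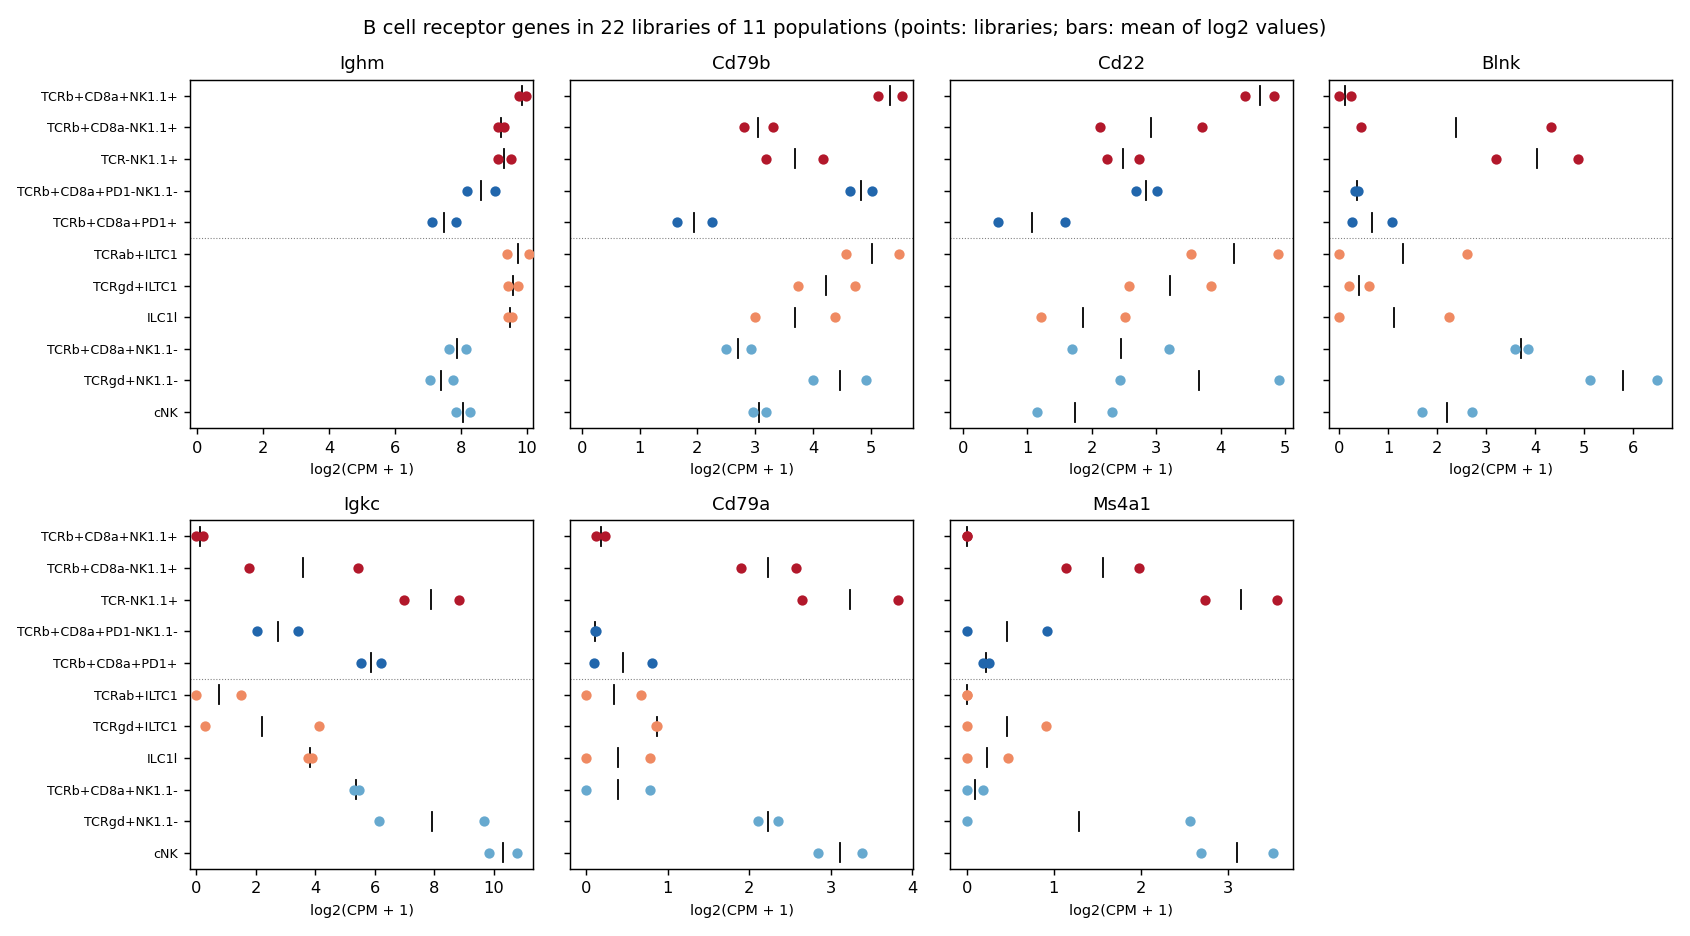
Levels of the 7 members in each of 22 libraries, as log2(CPM + 1) on the horizontal axis, by population; points are libraries, bars the mean of the log2 values, and the dotted line parts the first set (above) from the second. Ighm, Cd79b and Cd22 have their highest means in TCRb+CD8a+NK1.1+, where Ms4a1 is at 0 in both libraries, while Igkc is highest in cNK and Blnk in TCRgd+NK1.1-.

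Within the first set, these levels can be set beside those of the CD8 T cells without NK1.1. In TCRb+CD8a+PD1+ cells, Ighm was at 229 and 138 CPM, Cd79b at 2.14 and 3.74 CPM and Cd22 at 2.01 and 0.467 CPM. The log2 differences of TCRb+CD8a+NK1.1+ from these cells were 2.34 for Ighm, 3.76 for Cd79b and 4.23 for Cd22. The PD1-NK1.1- CD8 T cells lay closer, with Ighm at 528 and 291 CPM, Cd79b at 31.3 and 24.0 CPM and Cd22 at 7.04 and 5.45 CPM, and with log2 differences of 1.18, 0.52 and 1.93. The lower Cd79b library of TCRb+CD8a+NK1.1+ was thus little above the higher one of the PD1-NK1.1- cells. Both contrasts share the TCRb+CD8a+NK1.1+ libraries and are among those the genes were chosen on.

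B cell identity genes did not accompany the Ighm RNA of these cells. The 8 B cell identity genes examined that are not members (Pax5, Ebf1, Cr2, Fcer2a, Vpreb3, Fcrla, Spib and Bank1) summed to 0.261 and 1.57 CPM in TCRb+CD8a+NK1.1+, with a count for 1 and 3 of the 8 genes. In cNK the same genes summed to 39.4 and 21.2 CPM, with a count for 7 and 8 of 8, and in TCRgd+NK1.1- to 40.0 and 9.35 CPM, of which Ebf1 made up 36.5 CPM in replicate 1. Low sums were not particular to TCRb+CD8a+NK1.1+. They were 0.955 and 0 CPM in TCRgd+ILTC1, 1.9 and 2.09 CPM in TCRab+ILTC1 and 2.46 and 1.04 CPM in ILC1l. TCRb+CD8a+NK1.1- cells, which were low in Ighm, had sums of 5.2 and 0.745 CPM. Pax5, the factor that commits cells to the B lineage, had no count in TCRb+CD8a+NK1.1+ and was at 0 in 18 of all 22 libraries. The joining segments of the heavy chain locus (4 genes) and the variable segments of the kappa locus (59 genes) together had a count only in 1 of the 2 TCRb+CD8a+NK1.1+ libraries, where the kappa variable segments summed to 0.348 CPM. The variable segments of the heavy chain locus (27 genes) summed to 0.261 and 0.609 CPM there. Their sums were low in cNK too, at 1.08 and 0.441 CPM, and were 43.4 and 1.1 CPM in TCRgd+NK1.1-. A low sum of these segments therefore does not set TCRb+CD8a+NK1.1+ apart. The kappa variable segments had no count in either library of the PD1-NK1.1- CD8 T cells as well.

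Ighm RNA was found in every library, at 132 to 1058 CPM. The means ran from 927 ± 97.3 CPM (SD, n = 2) in TCRb+CD8a+NK1.1+ through 868 ± 269 in TCRab+ILTC1, 768 ± 119.7 in TCRgd+ILTC1, 715 ± 37.2 in ILC1l and 642 ± 117 in TCR-NK1.1+ to 591 ± 51.0 in TCRb+CD8a-NK1.1+. Along these 6 populations the libraries of each overlapped those of the next. The PD1-NK1.1- CD8 T cells followed at 409.5 ± 167 CPM, and their higher library, at 528 CPM, was little below the lower TCRb+CD8a-NK1.1+ library at 555 CPM. Then came cNK at 269 ± 54.5 CPM, TCRb+CD8a+NK1.1- at 241 ± 57.1, PD1+ CD8 T cells at 183 ± 64.2 and TCRgd+NK1.1- at 173 ± 57.8, again with overlap between neighbours. The 6 highest means were thus those of the 3 NK1.1+ populations of the first set and the 3 innate-like ones of the second, and cNK, which express NK1.1, had a lower mean.

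In the second set, which the choice of genes did not use, Ighm was higher in innate-like than in conventional cells. Its level was 678 and 1058 CPM in TCRab+ILTC1 against 200.2 and 281 CPM in TCRb+CD8a+NK1.1-. It was 683 and 852 CPM in TCRgd+ILTC1 against 132 and 214 CPM in TCRgd+NK1.1-, and 689 and 742 CPM in ILC1l against 308 and 231 CPM in cNK. In each of the 3 lineages both innate-like libraries lay above both conventional ones. Averaged over the 3 lineages, the log2 difference was 1.79 ± 0.20 (SE), and Ighm rose by the quasi-likelihood test of edgeR, adjusted by Benjamini-Hochberg over 16828 genes (adjusted p = 0.00163). It passed in all 19 alternative settings tried, with log2 differences of 1.59 to 1.94 and an adjusted p of at most 0.0127.

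Lineage by lineage, the Ighm difference was called in 1 of 3. The log2 difference was 2.12 ± 0.35 for TCRgd+ILTC1 against TCRgd+NK1.1- (adjusted p = 0.0251 by the quasi-likelihood test of edgeR, adjusted by Benjamini-Hochberg), and this call was lost without either TCRgd+ILTC1 library (adjusted p = 0.0845 without replicate 1 and 0.176 without replicate 2). For TCRab+ILTC1 against TCRb+CD8a+NK1.1- it was 1.82 ± 0.35 (adjusted p = 0.0593 by the same edgeR test), and for ILC1l against cNK it was 1.44 ± 0.35 (adjusted p = 0.109). The 3 differences were not shown to differ from each other: the largest gap, between the TCRgd and ILC1l pairs, was 0.68 ± 0.48 on the log2 scale (adjusted p = 0.537 by edgeR). Between the innate-like populations themselves, the log2 difference of Ighm was 0.28 ± 0.34 for TCRab+ILTC1 against ILC1l and -0.18 ± 0.34 for TCRgd+ILTC1 against TCRab+ILTC1, neither past the threshold.

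Igkc showed another order altogether. The level was 1763 and 911 CPM in cNK, 816 and 69.4 CPM in TCRgd+NK1.1- and 451 and 125 CPM in TCR-NK1.1+. It was 1.81 and 0 CPM in TCRab+ILTC1, 0.22 and 16.2 CPM in TCRgd+ILTC1 and 12.5 and 13.9 CPM in ILC1l, against 43.4 and 38.0 CPM in TCRb+CD8a+NK1.1-. The innate-like libraries of each lineage therefore lay below their conventional counterparts. The mean log2 difference over the 3 lineages was -5.92 ± 1.00, so Igkc fell (adjusted p = 0.00944 by the quasi-likelihood test of edgeR, adjusted by Benjamini-Hochberg), in the direction opposite to Ighm. It passed in all 19 alternative settings as well, with log2 differences of -8.17 (without TCRab+ILTC1 replicate 1) to -5.05 (without TCRgd+NK1.1- replicate 1) and an adjusted p of at most 0.0464. No single lineage passed the test: the log2 differences were -5.40 ± 1.74 in the TCRab pair (adjusted p = 0.204), -5.73 ± 1.70 in the TCRgd pair (adjusted p = 0.125) and -6.63 ± 1.76 for ILC1l against cNK (adjusted p = 0.152, all by edgeR), although DESeq2 called Igkc in each of them. The size in a pair rests on single libraries: the TCRab value was -12.1 without TCRab+ILTC1 replicate 1, a fitted value and no bound since the remaining library had 0 counts, and -4.52 without TCRab+ILTC1 replicate 2. The TCRgd value was -10.9 without TCRgd+ILTC1 replicate 2 and -3.13 without TCRgd+NK1.1- replicate 1. With the TCRgd populations left out, the mean of the remaining 2 lineages was -6.04 for Igkc (adjusted p = 0.00543) and 1.59 for Ighm (adjusted p = 0.0127, both by edgeR).

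**Figure D2:**
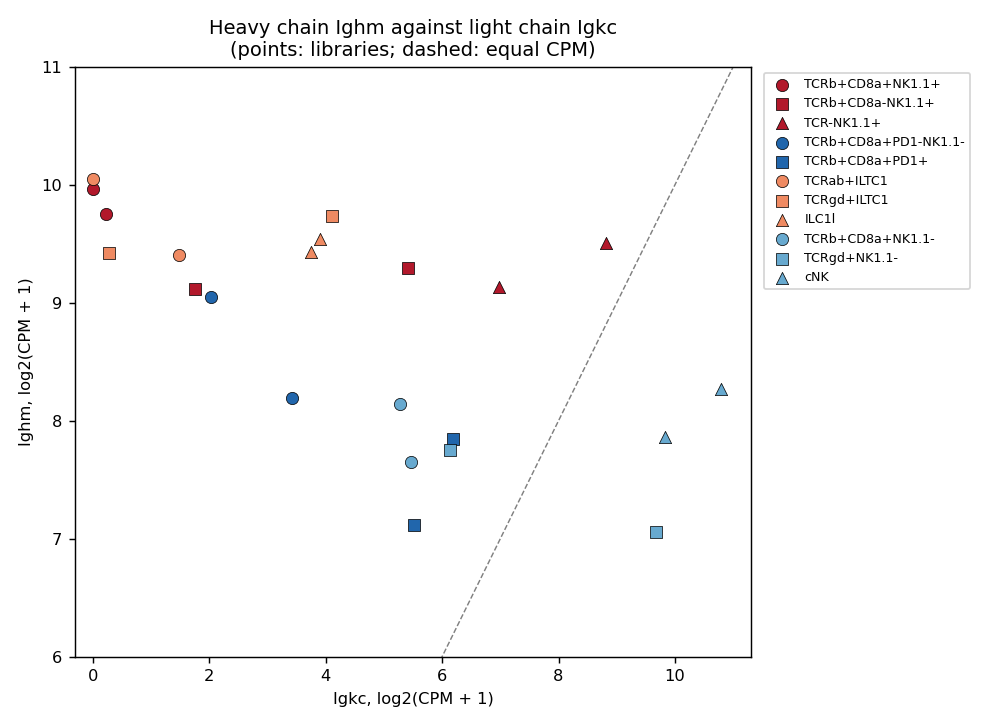
Ighm (vertical) against Igkc (horizontal) in each of 22 libraries, both as log2(CPM + 1); symbols give the population and the dashed line marks equal CPM. Only the cNK libraries and TCRgd+NK1.1- replicate 1 lie to the right of the line, and the TCRb+CD8a+NK1.1+ libraries, at 0 and 0.174 CPM of Igkc, are at the upper left.

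Heavy and light chain RNA did not keep a fixed ratio between libraries. The Ighm count was 0.174 and 0.253 times the Igkc count in the cNK libraries and 0.162 times in TCRgd+NK1.1- replicate 1. In TCRab+ILTC1 replicate 1 it was 375 times the Igkc count, and over the 18 libraries with more than 3 counts of Igkc the ratio spanned 2315-fold. Where Igkc had no count, Ighm was at least 3814-fold higher in TCRb+CD8a+NK1.1+ replicate 1 and at least 4729-fold higher in TCRab+ILTC1 replicate 2, taking 3 counts of Igkc per library as the limit. Per kilobase of exon, Ighm was at 492 CPM and Igkc at 0.164 CPM in TCRb+CD8a+NK1.1+, while cNK had Ighm at 143 and Igkc at 2513 CPM per kilobase.

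Some genes of antibody-secreting cells were high in the 3 populations highest in Igkc. Jchain, which joins secreted antibody units, was at 609 and 431 CPM in cNK, 491 and 19.4 CPM in TCRgd+NK1.1- and 272 and 91.7 CPM in TCR-NK1.1+, and at 0 and 0.957 CPM in TCRb+CD8a+NK1.1+. The kappa variable segments summed to 1237 and 16.8 CPM in cNK, 345 and 16.1 CPM in TCRgd+NK1.1- and 179 and 20.5 CPM in TCR-NK1.1+. Replicate 1 of these populations was the higher library for Igkc, Jchain and the segments alike. Of 7 plasma cell genes tested in the mean over 3 lineages, 3 fell and none rose, while 3.97% of all genes were called as lower and 1.9% as higher. Jchain fell by 6.16 ± 1.05 on the log2 scale (adjusted p = 0.00973 by edgeR's quasi-likelihood test), and Prdm1, a repressor that T and NK cells express too, fell by 1.89 ± 0.42. The third was Mzb1, which assists antibody folding and was at 16.5 and 14.2 CPM in cNK and at 0.0976 CPM or less in the innate-like libraries. The PD1+ CD8 T cells, the next highest in Igkc at 72.0 and 44.7 CPM, did not share this: Jchain was there at 0 and 1.31 CPM, Mzb1 had no count and the kappa variable segments summed to 0 and 5.05 CPM. The part that RNA of such cells has in the Igkc difference was not tested.

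**Figure D3:**
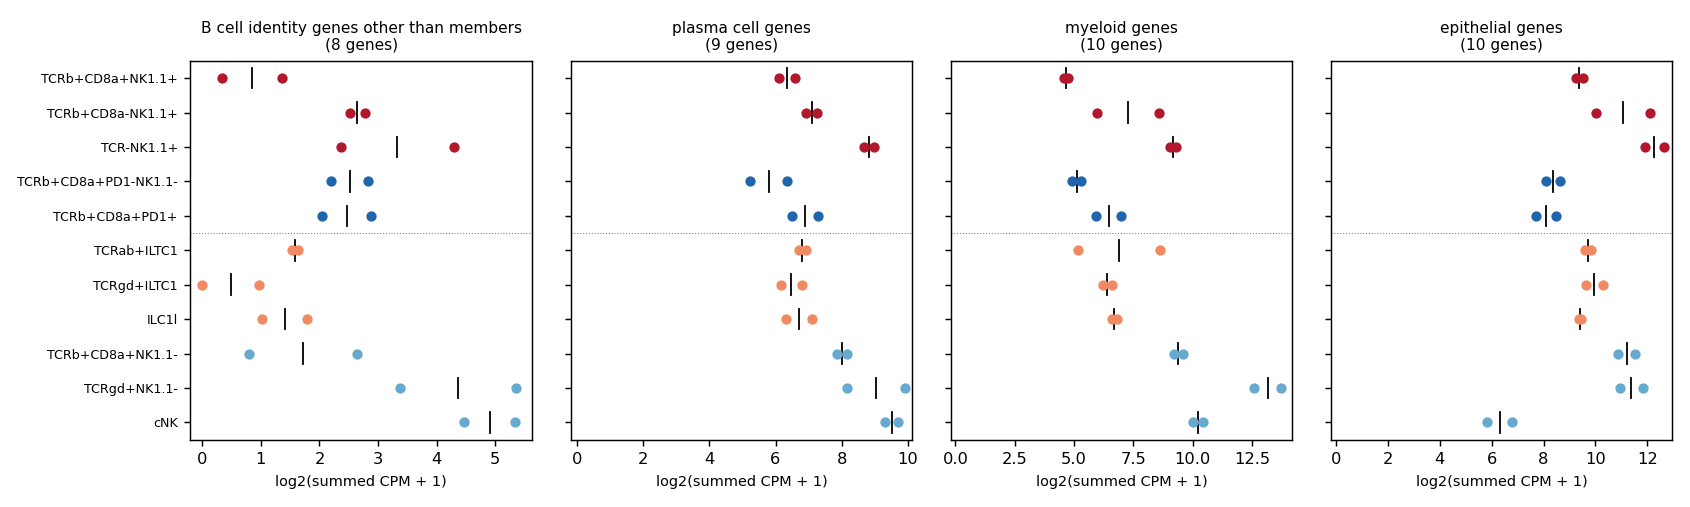
Summed levels of 4 marker lists in each of 22 libraries, as log2(summed CPM + 1), by population; points are libraries, bars the mean of the log2 values, and the dotted line parts the sets. The 8 B cell identity genes reach 39.4 CPM in cNK and 1.57 CPM at most in TCRb+CD8a+NK1.1+, and the 10 myeloid genes are highest in TCRgd+NK1.1-.

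Cd79b RNA was present in every library, and its highest mean, like that of Cd22, was in TCRb+CD8a+NK1.1+. Means were 39.5 ± 8.15 CPM (SD, n = 2) in TCRb+CD8a+NK1.1+, 33.2 ± 14.6 in TCRab+ILTC1, 27.7 ± 5.11 in PD1-NK1.1- CD8 T cells, 22.1 in TCRgd+NK1.1- (29.2 and 15.0 in its libraries), 18.9 ± 9.25 in TCRgd+ILTC1, 13.3 ± 8.96 in ILC1l and 12.5 ± 6.17 in TCR-NK1.1+, each overlapping the next. Lower means were those of cNK at 7.44 ± 0.956 CPM, TCRb+CD8a-NK1.1+ at 7.43 ± 2.07, TCRb+CD8a+NK1.1- at 5.58 ± 1.38 and PD1+ CD8 T cells at 2.94 ± 1.13; of these only TCRb+CD8a-NK1.1+ overlapped TCR-NK1.1+. Cd79b thus did not follow NK1.1, being high in PD1-NK1.1- CD8 T cells and low in the CD8a-NK1.1+ T cells.

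The Cd79b libraries parted in 1 lineage of the second set and not in the others. Both TCRab+ILTC1 libraries, at 22.8 and 43.5 CPM, were above the TCRb+CD8a+NK1.1- libraries at 4.61 and 6.56 CPM, and the log2 difference was 2.53 ± 0.73 (adjusted p = 0.154 by edgeR's quasi-likelihood test, called by DESeq2). In the TCRgd lineage the libraries overlapped, at 12.3 and 25.4 CPM against 29.2 and 15.0 CPM, with a log2 difference of -0.24 ± 0.68, and they overlapped for ILC1l against cNK too. The TCRgd effect differed from the TCRab effect by -2.77 ± 0.99 on the log2 scale. This did not pass after adjustment (adjusted p = 0.447 by the quasi-likelihood test of edgeR, adjusted by Benjamini-Hochberg). The mean over the 3 lineages, 1.06 ± 0.40, did not pass either (adjusted p = 0.171 by edgeR).

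Cd79a, the obligate partner of Cd79b in the B cell receptor, was near 0 in most populations. It was highest in TCR-NK1.1+ at 13.1 and 5.27 CPM and in cNK at 9.38 and 6.17 CPM, followed by TCRb+CD8a-NK1.1+ at 4.92 and 2.73 CPM and TCRgd+NK1.1- at 4.1 and 3.29 CPM. No library of the other 7 populations exceeded 0.827 CPM, a level reached in TCRgd+ILTC1. Per kilobase of exon, Cd79b and Cd79a were at 5.2 and 5.34 CPM in cNK and at 8.74 and 6.29 CPM in TCR-NK1.1+, near parity, but at 27.6 and 0.0899 CPM in TCRb+CD8a+NK1.1+ and at 23.2 and 0.201 CPM in TCRab+ILTC1. Over the 14 libraries with more than 3 counts of Cd79a, the ratio of Cd79b to Cd79a counts ran from 0.721 to 39.0. The mean log2 difference of Cd79a over the 3 lineages was -2.28 ± 1.21 (adjusted p = 0.351 by edgeR).

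The Cd22 libraries of 1 population often lay far apart. After TCRb+CD8a+NK1.1+, at 23.7 ± 5.28 CPM (SD, n = 2), the highest means were 19.6 ± 12.6 CPM in TCRab+ILTC1, 16.6 ± 17.3 in TCRgd+NK1.1- and 9.19 ± 5.94 in TCRgd+ILTC1. The TCRab+ILTC1 libraries were at 10.7 and 28.5 CPM, those of TCRgd+NK1.1- at 4.42 and 28.9 CPM and those of TCRb+CD8a-NK1.1+ at 3.37 and 12.1 CPM. In the order of means every population overlapped the next, down to ILC1l at 3.02 ± 2.43 CPM, cNK at 2.62 ± 1.95 and PD1+ CD8 T cells at 1.24 ± 1.09. The log2 difference was 1.88 ± 1.20 in the TCRab pair (adjusted p = 0.511 by edgeR), -0.90 ± 1.17 in the TCRgd pair and 0.24 ± 1.18 for ILC1l against cNK, and 0.40 ± 0.67 in the mean (adjusted p = 0.869). Part of the Cd22 exons, 479 bases, is shared with a gene on the opposite strand in the GENCODE annotation, which was not analysed here, and no source used here says whether the counting used strand.

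Cd22 and Ms4a1 are both B cell surface proteins, and their RNA was highest in different populations, though Cd22 had more than 3 counts in all 22 libraries. Ms4a1 was at 10.9 and 5.69 CPM in TCR-NK1.1+, 10.5 and 5.47 CPM in cNK, 4.94 and 0 CPM in TCRgd+NK1.1- and 1.21 and 2.95 CPM in TCRb+CD8a-NK1.1+, and at 0.9 CPM or less elsewhere. It had no count in TCRb+CD8a+NK1.1+ or TCRab+ILTC1, the 2 populations with the highest Cd22 means. The 4 populations highest in Ms4a1 were also the 4 highest in Cd79a. The mean log2 difference of Ms4a1 over the 3 lineages was -3.60 ± 1.68 (adjusted p = 0.282 by edgeR).

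Blnk differed from all other members in being highest in TCRgd+NK1.1-, at 33.6 and 87.8 CPM. It was at 28.4 and 8.22 CPM in TCR-NK1.1+, 13.4 and 11.0 CPM in TCRb+CD8a+NK1.1- and 18.9 and 0.359 CPM in TCRb+CD8a-NK1.1+. TCRgd+NK1.1- stood clear of TCR-NK1.1+, the next in order, and from there down to PD1-NK1.1- CD8 T cells each population overlapped the next. The log2 difference was -7.50 ± 2.36 for TCRgd+ILTC1 against TCRgd+NK1.1- (adjusted p = 0.145 by edgeR's quasi-likelihood test) and -3.60 ± 1.14 in the mean over 3 lineages (adjusted p = 0.103), so neither passed. DESeq2 called Blnk in both, and edgeR called it in the mean without TCRab+ILTC1 replicate 1, where Blnk was at 5.12 CPM (adjusted p = 0.0155). Macrophages express Blnk as well as B cells do, and the TCRgd+NK1.1- libraries were also the highest in the myeloid genes, at 6093 and 13638 CPM. Epithelial genes (10 genes, among them Krt8 and Epcam) were highest in TCR-NK1.1+, where they summed to 6334 and 3848 CPM. The part of either in the Blnk level was not tested.

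Counted over the list, few members passed in any 1 comparison. In the mean over 3 lineages 1 member rose and 1 fell of 7 tested, while 5.87% of all genes were called, 1.9% as higher and 3.97% as lower, and the median log2 difference of the 7 was -2.28 against -0.08 for all genes. For TCRgd+ILTC1 against TCRgd+NK1.1- 1 member was called, as higher, against 1.59% of all genes called and 0.671% called as higher. For TCRab+ILTC1 against TCRb+CD8a+NK1.1- edgeR called 0 members (0.523% of all genes), with 3 at an unadjusted p under 0.05 (Cd79b, Ighm and Igkc) and the same 3 called by DESeq2. For ILC1l against cNK edgeR called 0 members (1.02% of all genes), with Ighm and Igkc at an unadjusted p under 0.05 and called by DESeq2.

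**Figure D4:**
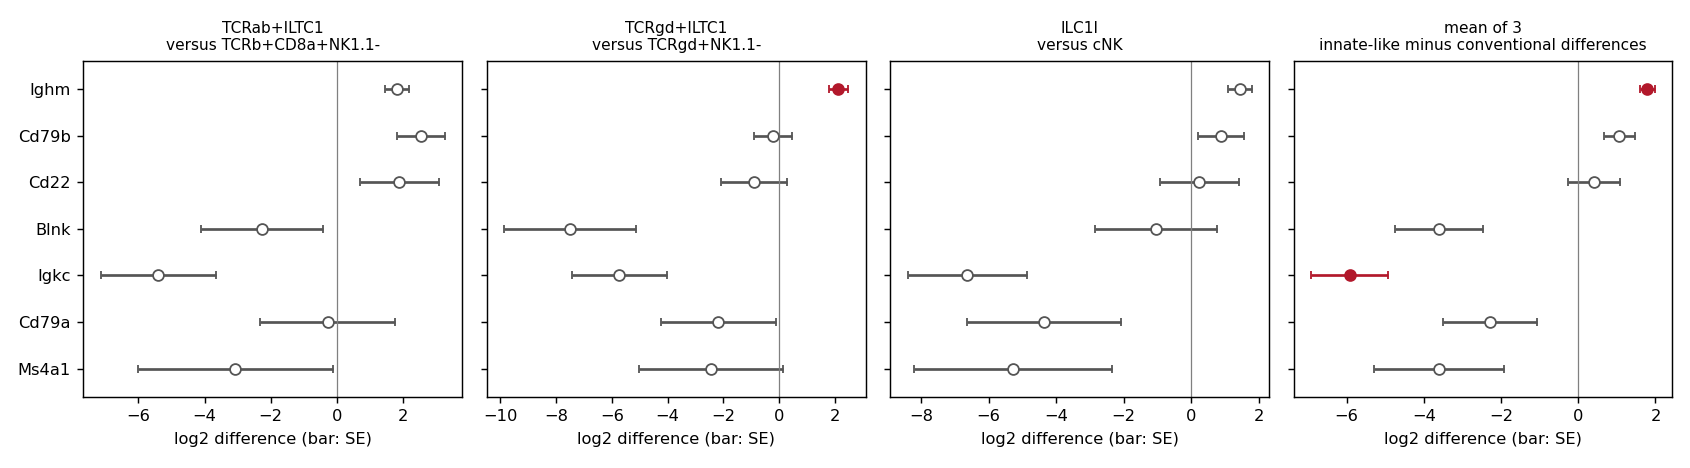
Log2 difference of each member between innate-like and conventional cells in 3 lineages and in their mean, from edgeR; bars are standard errors, and filled red points have an adjusted p under 0.05. Ighm is above 0 in every panel, at 1.79 in the mean, and Igkc below 0 in every panel, at -5.92 in the mean.

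Among the innate-like populations edgeR called 0 members, as it called 0% of all genes. For TCRab+ILTC1 against ILC1l, Igkc was at an unadjusted p under 0.05 and DESeq2 called 0 members. For TCRgd+ILTC1 against TCRab+ILTC1 no member was at an unadjusted p under 0.05 and DESeq2 called 0. In the first set, TCRb+CD8a-NK1.1+ cells were compared with TCR-NK1.1+ cells, and edgeR called 0 members and 0% of all genes. Both populations were comparators in the choice of the genes, so these tests are not independent of that choice. Igkc was at 41.7 and 2.37 CPM against 451 and 125 CPM there, a log2 difference of -3.66 ± 1.13 (adjusted p = 0.498 by edgeR). It was at an unadjusted p under 0.05 by edgeR, while DESeq2 called 0 members. With no filter on low counts, edgeR called 287 genes in this comparison, and Igkc was the 1 member among them. Without TCRb+CD8a-NK1.1+ replicate 1 the log2 difference of Igkc was -6.89. Ighm, at 627 and 555 CPM against 725 and 559 CPM, had a log2 difference of -0.09 ± 0.34. With the replicate number as a block, 16 genes were called in place of 0, none of them a member.

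Tests of whether the innate-like difference itself varied with lineage called 0 members with edgeR. In the TCRab against the ILC1l lineage 0.256% of all genes were called and no member was at an unadjusted p under 0.05. In the TCRgd against the TCRab lineage 0.0535% were called, and Cd79b was at an unadjusted p under 0.05. In the TCRgd against the ILC1l lineage 1.02% were called, and Blnk was at an unadjusted p under 0.05 (log2 difference -6.45 ± 2.78). DESeq2 called 0 members in all 3.

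The wider receptor pathway did not move as a unit. In the mean over 3 lineages 3.97% of all genes were called as lower and 1.9% as higher. Of 21 B cell receptor signalling genes, all tested, 4 fell there and 0 rose, with a median log2 difference of -0.20 against -0.08 for all genes. These were Cd81, a tetraspanin of many cell types, the Src-family kinase Blk, the kinase Btk and the exchange factor Rasgrp3. Cd81 was at 731 and 1094 CPM in TCRgd+NK1.1- against 9.69 and 5.27 CPM in TCRgd+ILTC1, and fell by 3.50 ± 0.34 on the log2 scale in the mean (adjusted p = 0.000789 by edgeR). Blk, which some TCRgd T cells express, was at 277 and 297 CPM in TCRgd+NK1.1- and at 2.21 CPM or less in every other population. All 4 genes were at their highest in a TCRgd+NK1.1- library, the population highest in myeloid genes, whose part in these falls was not tested.

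Plcg2, the phospholipase downstream of Blnk, was the 1 signalling gene of 21 called in the TCRab pair, where 0.523% of all genes were called. Its level was 63.7 and 59.9 CPM in TCRab+ILTC1 against 14.0 and 5.37 CPM in TCRb+CD8a+NK1.1-, a log2 rise of 2.65 ± 0.45 (adjusted p = 0.0427 by edgeR's quasi-likelihood test). In cNK it was at 95.5 and 109.5 CPM and in ILC1l at 71.5 and 76.8 CPM, so NK1.1+ cells without a T cell receptor in their labels had it too. In the TCRgd pair 2 of the 21 fell, Blk and Cd81, and none rose, while 1.59% of all genes were called. For ILC1l against cNK edgeR called 0 of the 21 and 1.02% of all genes.

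Of the genes that restrain the receptor, 9 of 10 on the list were tested, and 1 rose and 2 fell in the mean over 3 lineages. The share of all genes called there was 1.9% as higher and 3.97% as lower. The median was -0.06 for the list against -0.08 for all genes. Ptpn6, which encodes the phosphatase SHP-1 that Cd22 recruits, was at 629 and 533 CPM in TCRab+ILTC1 against 422 and 412 CPM in TCRb+CD8a+NK1.1-. It was at 700.4 and 773 CPM in TCRgd+ILTC1 against 281 and 330.1 CPM in TCRgd+NK1.1-, and at 602 and 605 CPM in ILC1l against 408 and 382 CPM in cNK. The innate-like libraries were above the conventional ones in each lineage, and Ptpn6 rose by 0.78 ± 0.12 on the log2 scale (adjusted p = 0.00674 by edgeR). The inhibitory Fc receptor Fcgr2b fell by 5.72 ± 0.82 (adjusted p = 0.00455 by edgeR), from 60.5 and 141 CPM in TCRgd+NK1.1- and 42.0 and 39.1 CPM in cNK to 1.46 CPM or less in the innate-like libraries, with 9.87 and 13.6 CPM in TCRb+CD8a+NK1.1-, and the inhibitory receptor Pirb fell by 5.04 ± 1.20. In the same comparison all 10 myeloid genes fell, with a median log2 difference of -4.10, and 5 of 10 MHC class II genes fell and 0 rose. The part of myeloid RNA in the Fcgr2b and Pirb differences was not tested.

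Cd79a and Cd79b belong to a family of receptor adaptors that T and NK cells also use. Of 9 such adaptors, Cd79a and Cd79b among them, 5 rose and 1 fell in the mean over 3 lineages. Of all genes, 1.9% were called there as higher and 3.97% as lower. Fcer1g rose by 2.13 ± 0.24 on the log2 scale (adjusted p = 0.00163 by edgeR) and was at 2295 and 2010 CPM in TCRb+CD8a+NK1.1+, and Tyrobp rose by 1.73 ± 0.21 (adjusted p = 0.00222). The other 3 that rose were Cd3g, Cd3e and Cd3d, of the T cell receptor, and Cd247 fell. The 3 CD3 genes were called for ILC1l against cNK (log2 differences of 6.07, 6.40 and 4.31) and in neither T cell pair, and the Cd3g difference was smaller in the TCRab than in the ILC1l lineage by edgeR's test of that contrast (-4.89 ± 0.76, adjusted p = 0.039), as in the TCRgd lineage (-5.10 ± 0.76, adjusted p = 0.0181). Of 5 adaptors of the Blnk, Lcp2 and Lat kinds, Clnk rose by 1.91 ± 0.29 (adjusted p = 0.00597 by edgeR). Lat2 rose by 1.29 ± 0.29, while Lat fell by 0.64 ± 0.16. Clnk, a relative of Blnk, was at 163 and 131 CPM in TCRb+CD8a+NK1.1+, where Blnk was at 0 and 0.174 CPM, and at 2.74 and 1.96 CPM in PD1+ CD8 T cells.

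Likeness among the members over the 11 populations is described by Pearson's r of mean log2 CPM, with no test. The populations share depth and other cells' RNA, and include TCRb+CD8a+NK1.1+, on which the genes were chosen, so the parting of Cd22, Cd79b and Ighm from Igkc is partly set by that choice. Cd79a followed Ms4a1 (r = 0.93), and Igkc followed Jchain (r = 0.86) and Cd79a (r = 0.71). Cd22 followed Cd79b (r = 0.86) but not Cd79a (r = -0.15). Ighm ran opposite to Igkc (r = -0.70) and had r = 0.57 with Cd79b and 0.52 with Cd22. Cd79a and Cd79b had r = -0.24.

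Among 10215 genes with at least 10 CPM in 1 population, those most like Ighm over the 11 populations were Klra5 (r = 0.96), Evl (r = 0.95), Degs2, Gzmb and Tnni1 (r = 0.94 each). Klra5 encodes an NK cell receptor of the Ly49 family and Gzmb the cytotoxic protease granzyme B, and both had their highest means, 623 and 15005 CPM, in TCRb+CD8a+NK1.1+ and their lowest, 8.16 and 1064 CPM, in PD1+ CD8 T cells. Those most like Cd22 were P2rx7, a receptor for extracellular ATP (r = 0.94), Acoxl (r = 0.92), Ddc (r = 0.91), Ppp1r21 (r = 0.88) and Adamtsl2 (r = 0.87). For Cd79b they were Gtf2h4 (r = 0.93), Ppp1r21 (r = 0.89), Spout1 (r = 0.87), Cd22 (r = 0.86) and Ddc (r = 0.84). None of these genes other than Cd22 is on a B cell list used here. The search could not return Cd79a or Ms4a1, whose highest means, 9.17 and 8.28 CPM in TCR-NK1.1+, were under its limit of 10 CPM. Receptor segments were left out too, and the share of list genes among those searched was not counted. No conclusion is drawn from this absence.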

How the data were processed

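RNA of sorted cells was made into cDNA libraries with the SMARTer RACE kit, per the labels' protocols. The values are whole-number counts of reads per gene, as deposited by the authors. The submitters' processing notes name BWA 0.7.5a, Picard, HTSeq and the builds mm9 and NCBIM37; counting settings and strand were not given in the sources used here. Ensembl identifiers were paired with symbols for 32897 of 37620 entries. Libraries titled ILC1I and ILC1l were taken as 1 population.

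Counts were tested with edgeR 4.0.16 (R 4.3.3) by the quasi-likelihood F test with TMM scaling, the default filter on low counts and Benjamini-Hochberg adjustment (threshold 0.05), separately for the 10 libraries of the first set (15727 genes) and the 12 of the second (16828 genes), with 1 mean per population; all 7 members passed the filter. Innate-like and conventional cells were compared in 3 lineages and in the mean of the 3 log2 differences. CPM levels used TMM factors over all 22 libraries, and levels per kilobase merged exon lengths of GENCODE M21. Alternatives were RLE size factors, scaling by library totals only, DESeq2 1.42.0, no filter, 1 fit of all libraries and a replicate block. The TCRgd+NK1.1- population and each library were also left out in turn. Leaving out both TCRgd populations was added after the data were seen. The procedure was tested on simulated data. Same-numbered libraries of the first set deviated together in all 10 pairs of populations (r from 0.12 to 0.4 over 8901 genes). This is a finding in the data, and the labels do not say what these libraries share.

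The members, gene lists and tests were chosen with earlier results of these data known. Named genes are the members, defining B cell genes, up to 4 called genes each way per list and comparison (5 CPM or more where higher), and the 5 genes most like Ighm, Cd79b and Cd22; Cd3e, Klrb1c, Rasgrp3 and Pirb were named to describe the libraries or to complete a count. Ighd, Igha, Iglc1, Iglc3, Trdc and Lilrb4a were not analysed here. 1 further gene of the B cell lists is not reported here and was left out of every list.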

Additional observations from a re-analysis of the deposited data

How the results depend on the processing

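No called difference of a member changed sign under the alternatives run: of 882 values over 70 member results under the alternatives, 853 kept their side of the threshold, 27 gained a call and 2 lost one, both being Ighm in the TCRgd pair. Differences that were not called could change sign and still count among the 853. Blnk in TCRab+ILTC1 against ILC1l ran from -7.58 to 8.15 on the log2 scale. In the TCRgd pair Cd22 ran from -1.8 to 1.1 and Ms4a1 from -8.11 to 5.65. Numbers of genes called depended far more on the processing. Without the filter on low counts edgeR called 1244 genes for TCRab+ILTC1 against TCRb+CD8a+NK1.1- (88 with it), 1786 for TCRgd+ILTC1 against TCRgd+NK1.1- (268), 787 for ILC1l against cNK (171), 344 for TCRab+ILTC1 against ILC1l (0), 154 for TCRgd+ILTC1 against TCRab+ILTC1 (0), 2233 for the mean of 3 lineages (987), 287 for TCRb+CD8a-NK1.1+ against TCR-NK1.1+ (0), and 738, 479 and 1320 for the differences of TCRab from ILC1l (43), TCRgd from TCRab (9) and TCRgd from ILC1l (171). DESeq2 gave, in that order, 1183, 1700, 833, 196, 62, 2221, 299, 510, 348 and 1204. With all 22 libraries in 1 fit the numbers that moved by over 1.5 times were 282, 626, 327 and 9 for the first 4, 1517 for the mean, and 143, 31 and 458 for the 3 differences. Without the TCRgd+NK1.1- population they were 179 for the TCRab pair, 357 for ILC1l against cNK, 1 for TCRab+ILTC1 against ILC1l and 90 for TCRab from ILC1l; the mean without the TCRgd populations gave 597. The causes were not tested. Leaving out 1 library gave 11 to 840, 7 to 804, 34 to 79, 0 to 324, 0 to 297, 448 to 1836, 0 to 318, 4 to 418, 0 to 291 and 27 to 506 genes in the same order. With the replicate block, TCRb+CD8a-NK1.1+ against TCR-NK1.1+ gave 16 genes in place of 0. In the second set 5 of 15 population pairs had r over 0.1 (from -0.05 to 0.18, median 0.09), which does not settle whether the numbers pair the libraries there. With the block, the TCRab pair gave 99 genes in place of 88, and Ighm was then called (adjusted p = 0.0493 by edgeR). The block changed no other member's call. Ighm in the TCRab pair also passed with no filter, with DESeq2, with all 22 libraries (adjusted p = 0.0164), without TCRgd+NK1.1- (adjusted p = 0.0372) and without TCRab+ILTC1 replicate 1 (adjusted p = 0.0195), all by edgeR unless named. Ighm in ILC1l against cNK passed with no filter, DESeq2 and without TCRgd+NK1.1- (adjusted p = 0.0456 by edgeR). With 2 libraries per population, levels of Cd79a, Ms4a1 and Blnk near 3 counts cannot be compared at this depth.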
